A study of Homo sapiens with 9 samples.

Results

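The extracellular matrix genes described here are 40 genes for matrix glycoproteins and proteoglycans, measured in 3 human breast cell lines of the MCF-10A series. They were taken from a list of gene symbols, and each was represented by the probe set with the highest mean signal over the 9 arrays among the probe sets annotated to that gene alone. All 40 had such a probe set, of 19775 genes so represented, and 30 of them passed the filter on dim signals that left 12594 genes for testing. The members not tested were BGN, FBLN2, FBLN5, EFEMP2, THBS2, ELN, GPC3, NID1, EMILIN1 and MATN2, whose signals lay between 2.3 and 88.7 on every array. The lines were MII (MCF-10AT1Kcl2, labelled carcinoma in situ), MIII (MCF-10A1h, labelled carcinoma) and MIV (MCF-10A1a, labelled metastatic carcinoma), with 3 arrays of total RNA each. No treatment is given in the labels, and all were grown in the same medium with horse serum, insulin, cholera toxin, epidermal growth factor and a glucocorticoid, and, as background, the lines of this series derive from MCF-10A cells carrying activated HRAS. The purpose given was a list of genes whose expression is lost in MIV. Each disease stage is represented by 1 cell line, so stage and line cannot be told apart, and the p-values cover only the spread among these 9 arrays. Replicates are named biological in the sample titles, which do not say whether separate cultures were used.

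Cells build a matrix around themselves from secreted glycoproteins, such as fibronectin, fibrillins and thrombospondins, and from proteoglycans, whose core proteins carry long sulfated sugar chains. Fibroblasts and other mesenchymal cells make most of the interstitial matrix, whereas epithelial cells such as those of the breast duct rest on a basement membrane and carry syndecans and glypicans at their surface. Many of these genes are known to rise when epithelial cells take on mesenchymal features.

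Sequences upstream of 5 members are shown because the first 4 of these genes were near or below the background level in MII and high in MIII, whereas NID2 moved the other way. Each run holds the 250 bases before the RefSeq start of the gene (GRCh38.p14), 5′ to 3′ on the strand of the gene, which is the minus strand for all 5. Capitals mark matches, on either strand, to the E-box CACCTG, the AP-1 motif TGANTCA, the TEAD motif GGAATG, the TATA box TATAAA or the GC box GGGCGG. The windows are chr5:151686916-151687165 for SPARC, chr2:215436069-215436318 for FN1, chr13:37598769-37599018 for POSTN, chr15:48644971-48645220 for FBN1 and chr14:52069060-52069309 for NID2.
SPARC: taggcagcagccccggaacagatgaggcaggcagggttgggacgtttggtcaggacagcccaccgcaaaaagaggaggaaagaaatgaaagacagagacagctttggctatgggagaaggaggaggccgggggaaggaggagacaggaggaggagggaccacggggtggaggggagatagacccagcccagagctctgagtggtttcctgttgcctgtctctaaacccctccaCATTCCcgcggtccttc
FN1: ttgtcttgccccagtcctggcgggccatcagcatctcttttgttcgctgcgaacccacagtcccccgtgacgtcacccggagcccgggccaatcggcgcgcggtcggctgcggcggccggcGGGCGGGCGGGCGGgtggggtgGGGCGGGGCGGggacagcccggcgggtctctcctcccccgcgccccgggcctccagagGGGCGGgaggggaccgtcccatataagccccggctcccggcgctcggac
POSTN: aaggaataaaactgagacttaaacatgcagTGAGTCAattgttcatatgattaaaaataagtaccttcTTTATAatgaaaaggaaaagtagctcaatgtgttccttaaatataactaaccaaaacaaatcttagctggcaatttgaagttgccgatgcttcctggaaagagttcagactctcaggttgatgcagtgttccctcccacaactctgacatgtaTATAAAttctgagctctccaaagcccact
FBN1: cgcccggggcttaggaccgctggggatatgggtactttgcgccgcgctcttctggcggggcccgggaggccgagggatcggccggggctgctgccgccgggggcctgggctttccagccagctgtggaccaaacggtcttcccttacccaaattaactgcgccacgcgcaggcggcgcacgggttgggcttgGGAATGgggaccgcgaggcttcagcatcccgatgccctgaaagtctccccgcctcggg
NID2: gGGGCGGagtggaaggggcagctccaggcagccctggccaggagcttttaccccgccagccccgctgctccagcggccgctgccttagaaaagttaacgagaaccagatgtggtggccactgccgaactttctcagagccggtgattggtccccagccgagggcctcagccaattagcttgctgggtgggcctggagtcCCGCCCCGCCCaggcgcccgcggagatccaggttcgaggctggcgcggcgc

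The upstream sequences of these genes differed in composition, with a GC content of 36.4% for POSTN, 59.2% for SPARC, 68.0% for NID2, 69.6% for FBN1 and 76.4% for FN1, against a median of 58.0% over all promoters. FN1 held 6 GC boxes, some of which overlapped, between 129 and 44 bases before the start. POSTN held none, but had a TATA box 29 to 24 bases before the start, a second match to it further upstream and an AP-1 match 220 to 214 bases before the start. SPARC and FBN1 each held a single TEAD match, at 17 to 12 and at 58 to 53 bases. Of 32 upstream windows of 27 members in the RefSeq table, 25 (78.1%) held a GC box, against 42.6% of 35116 windows of all genes. The E-box was in 3 member windows (9.4%, all genes 17.5%), AP-1 in 2 (6.2%, all genes 6.6%), TEAD in 4 (12.5%, all genes 11.9%) and the TATA box in 4 (12.5%, all genes 10.7%). Members without an entry were DCN, LUM, EFEMP1, ELN, AGRN, SDC2, GPC3, SRGN, MFAP5, EMILIN1, MATN2, SPOCK1 and THY1.

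Signals are MAS5 values on a linear scale without detection calls, and the floor is taken here as the median of all values on all arrays, 69.3. The median signal of an array lay between 64.7 and 74.9. The MIV replicate 3 array stood apart in its bioB hybridisation control, with a mean of 3133 against 1001 to 1523 on the other 8 arrays; without it, 18 members were called lower and 0 higher in MIV against MIII. Of 9 epithelial markers with a probe set, 8 were above the floor on all arrays of MII and of MIV and 6 on those of MIII, where CLDN4 (20.8 ± 11.9, SD, n = 3) and CLDN7 (23.5 ± 21.8) were below it. The epithelial cadherin CDH1 gave 12055 ± 304, 1305 ± 32.7 and 7288 ± 149 in MII, MIII and MIV, and EPCAM was 17233 ± 230.1, 3737 ± 74.5 and 18774 ± 2385. KRT14 gave 2155 ± 85.4, 957 ± 84.5 and 137 ± 20.4, and was called lower in MIV than in either other line. KRT5 was level, at 25794 ± 922, 26308.5 ± 677 and 25069 ± 670. Of the 8 tested epithelial markers, 5 were called lower in MIII against MII (all genes 5.55%). In MIV against MIII 4 were called higher (all genes 4.95%) and 1 lower (all genes 7.79%), and in MIV against MII KRT14 alone was called. Summed over all 9 epithelial markers, the signal was 65832 to 66884 in MIII, against 121153 to 126680 in MII and 119806 to 129570 in MIV. Of 10 fibroblast markers outside the members, COL1A2, PDGFRA, PDGFRB, TCF21 and PRRX1 stayed below the floor on all 9 arrays, and COL1A1 had similar signals in the 3 lines (243 ± 33.2, 213 ± 39.2 and 222 ± 35.2). COL3A1 was above the floor only in MIII (652 ± 42.4) and passed the filter through those arrays alone. TWIST1 was 638 ± 56.2, 1519.5 ± 76.7 and 545 ± 78.0 in MII, MIII and MIV. S100A4 was called lower in MIII than in MII and lower again in MIV, with 3386 ± 170.1, 1149.5 ± 36.9 and 233 ± 36.1. FAP was highest in MII (678 ± 46.2, against 405 ± 28.4 and 390.4 ± 37.5). Of the 5 tested fibroblast markers, 2 were called higher (all genes 6.17%) and 1 lower (all genes 5.55%) in MIII against MII. With 5 genes tested, a count of 1 cannot be told from the share over all genes. The summed signal of the fibroblast list was 4856 to 5232 in MII, 4016 to 4120 in MIII and 1500 to 1639 in MIV. Of 9 leukocyte and endothelial markers 6 were below the floor on every array of each line, and the sum was 1739 to 1991 in MII, 918 to 1127 in MIII and 724 to 786 in MIV. In such bulk RNA, fewer cells of a type and less RNA per cell cannot be told apart. The epithelial sum was lowest in MIII, the line in which most matrix genes were highest, and the part of these markers in the matrix results was not tested.

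Most of the tested matrix genes were higher in MIII than in either other line, and fewer differed between MIV and MII. A gene is called here when its limma adjusted p over all genes is under 0.05 and its change is at least 2-fold on the log2(signal + 18.3) scale, which understates the change of dim genes. Against MII, 17 of the 30 tested members were called higher in MIII, where 6.17% of all genes were, and 2 were called lower, where 5.55% of all genes were. In MIV against MIII, 18 were called lower (all genes 7.79%) and 0 higher (all genes 4.95%), with 4 members higher at an unadjusted p under 0.05. In MIV against MII, 7 members were called higher (all genes 2.96%) and 4 lower (all genes 5.18%). The median log2 change of the tested members was 1.54 in MIII against MII, -1.51 for MIV over MIII and 0.05 for MIV over MII, beside medians of -0.02, -0.01 and -0.03 over all genes. These 3 comparisons share arrays, and POSTN, LUM, SDC2 and SRGN passed the filter through MIII arrays alone and NID2 through MII arrays alone. FBN1, THY1 and MFAP2 would not have passed without their MIII arrays, nor MFAP5 without its MII arrays. The calls of all these genes were favoured by this selection and raise the counts given here and for the groups below. With no filter, 17 of 40 members were called higher in MIII against MII, beside 899 of 19775 genes. In MIV against MIII 20 of 40 were called lower with no filter, beside 1120 of 19775 genes.

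In 21 of the 30 members the 3 MIII arrays all lay above the 6 others, as in 18.0% of all genes tested. These include POSTN, LUM, SDC2 and SRGN, which passed the filter through MIII arrays alone. FBN1 and THY1 are also among them, and would not have passed without their MIII arrays. The 3 MII arrays lay below all others in 9 members (all genes 10.4%) and above them in GPC4, MFAP5 and NID2 (all genes 13.0%). The 3 MIV arrays lay below all others in 6 members (all genes 14.8%) and above them in SDC1 alone (all genes 14.2%). MIII was the lowest line by array for SDC1, SDC4 and THBS3 (all genes 17.2%). With 3 arrays against 3, the exact two-sided permutation test of a single gene cannot give a p below 0.1.

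**Figure D1:**
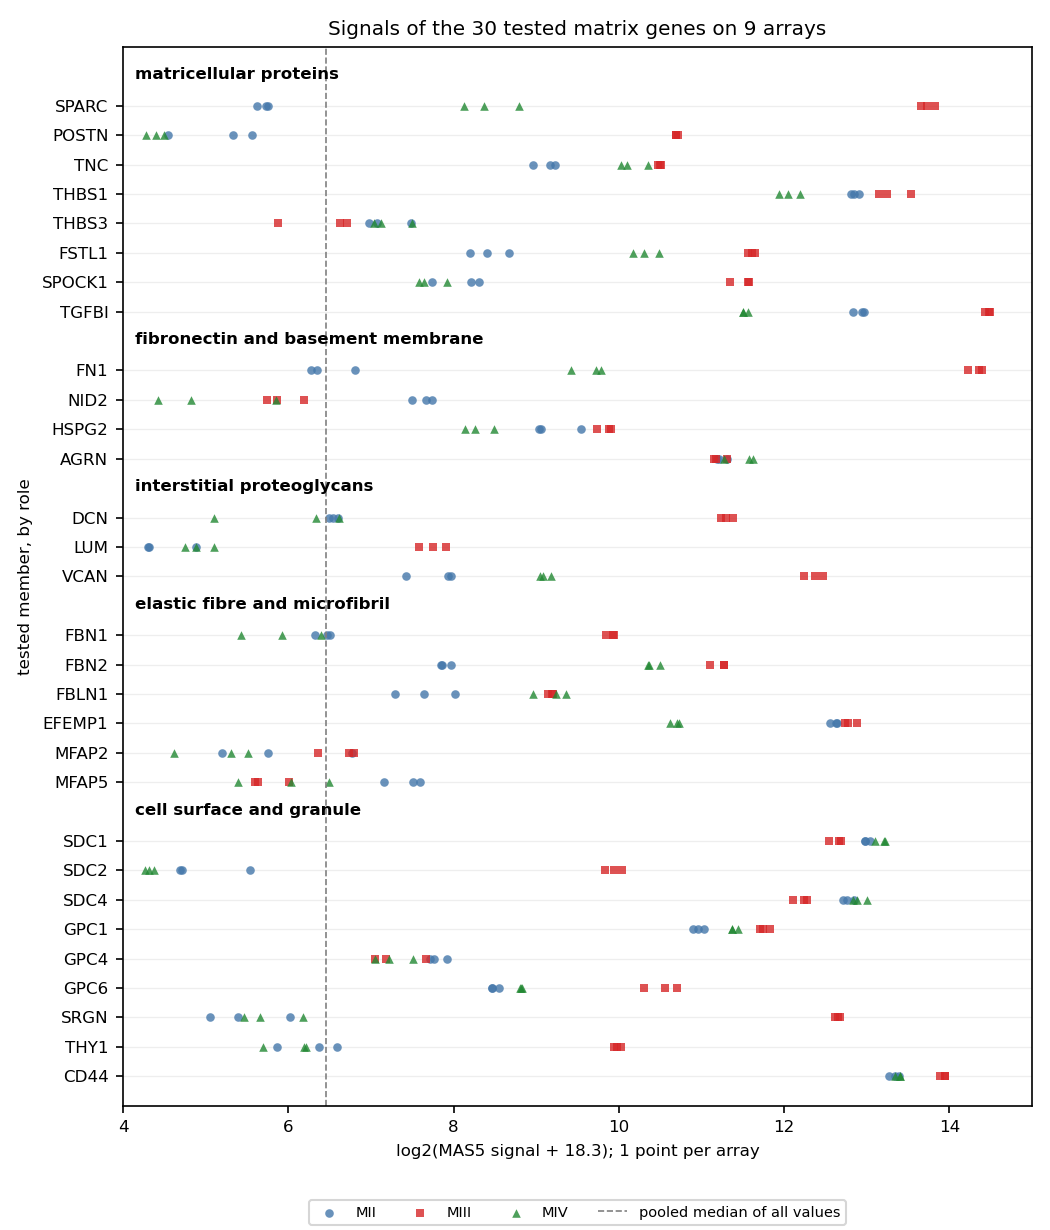
Signals of the 30 tested members, as log2(MAS5 signal + 18.3) on the x axis, with 1 point per array (circles MII, squares MIII, triangles MIV) and the floor as a dashed line. The squares lie to the right of all other points in 21 of the 30 rows, and the MIV points lie at the MII level for DCN, SRGN and THY1 but between the other lines for SPARC, FN1, VCAN and FSTL1.

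The matricellular proteins, which bind collagen, growth factors and cell receptors without building the scaffold themselves, were mostly higher in MIII than in MII. Of 8 tested, 6 were called higher (all genes 6.17%) and 0 lower (all genes 5.55%) in MIII against MII. In MIV against MIII 0 were higher (all genes 4.95%) and 6 lower (all genes 7.79%), with 1 higher and 7 lower at an unadjusted limma p under 0.05. In MIV against MII 3 were higher (all genes 2.96%) and 1 lower (all genes 5.18%). In this and the following small groups, a count of 1 cannot be told from the share over all genes. SPARC, a collagen-binding calcium protein, gave signals of 34.8, 35.5 and 31.1 on the MII arrays, 12935, 14542 and 13535 on those of MIII and 424, 312 and 261 on those of MIV. Its MII arrays were below the floor, its MIV arrays were above it, and no arrays of different lines overlapped. The log2 change was 8.04 ± 0.14 (SE) in MIII against MII, -5.31 ± 0.14 in MIV against MIII and 2.73 ± 0.14 for MIV over MII (limma adjusted p = 1.46e-14, 1.48e-12 and 2.43e-09). The mean MIV signal was 2.43% of that of MIII, and above that of MII. A second, dimmer SPARC probe set gave 5.46 ± 0.31 in MIII against MII and 1.01 ± 0.31 for MIV over MII. POSTN, periostin, which links collagen and tenascin, gave 5.0, 22.0 and 29.0 on the MII arrays, 1661, 1641 and 1632 on those of MIII and 4.2, 1.1 and 2.8 on those of MIV. It was below the floor in MII and MIV, with log2 changes of 5.55 ± 0.27 and -6.31 ± 0.27 (limma adjusted p = 1.09e-09 and 2.60e-10). Its change in MIV against MII was -0.76 ± 0.27 (adjusted p = 0.0392), short of 2-fold, and reached a call (-1.06) when MII replicate 1 was left out, with all values below the floor. SPOCK1, testican, a secreted proteoglycan related to SPARC, gave 278, 299 and 196 on the MII arrays, 2594, 2995 and 3028 on those of MIII and 224, 173 and 182 on those of MIV. The MIII arrays stood far above the rest and those of MII and MIV overlapped (log2 change between them -0.37 ± 0.15, limma adjusted p = 0.0548).

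For FSTL1 and TNC the MIV level lay between those of MII and MIII. FSTL1, a secreted glycoprotein of the SPARC family, gave 390.0, 275 and 321 on the MII arrays, 2997, 3192 and 3113 on those of MIII and 1417, 1244 and 1131 on those of MIV. The lines did not overlap, and MIV lay between the others, with a log2 change of -1.29 ± 0.11 against MIII and 1.89 ± 0.11 against MII (limma adjusted p = 3.65e-07 and 1.19e-08). TNC, tenascin-C, a hexameric glycoprotein of remodelled stroma, gave 482, 582 and 557 on the MII arrays, 1398, 1434 and 1442 on those of MIII and 1291, 1023 and 1074 on those of MIV. It was 1.37 ± 0.10 higher in log2 in MIII than in MII and 1.04 ± 0.10 higher in MIV than in MII (limma adjusted p = 4.85e-08 and 1.36e-06), and MIV held 79.3% of the MIII signal. The TNC call in MIV against MII sat at the 2-fold minimum, and was lost without MII replicate 1 (0.96) or without MIV replicate 1 (0.94).

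TGFBI, a TGF-beta-induced adhesion protein, and THBS1, thrombospondin-1, which binds latent TGF-beta, were bright in all lines and lowest in MIV. TGFBI gave 7828, 7294 and 7995 on the MII arrays, 23097, 22116 and 22792 on those of MIII and 3005, 2891 and 2889 on those of MIV. No arrays of different lines overlapped, and the log2 change was 1.56 ± 0.05 in MIII against MII, -2.94 ± 0.05 in MIV against MIII and -1.39 ± 0.05 for MIV over MII (limma adjusted p = 8.14e-12, 1.95e-14 and 4.65e-11). THBS1 gave 7183, 7631 and 7339 on the MII arrays, 9689, 9080.5 and 11903 on those of MIII and 4669.6, 4197 and 3889.7 on those of MIV, again in the order MIII, MII, MIV without overlap. It was called in MIV against MIII (-1.26 ± 0.09, limma adjusted p = 4.12e-08) but not in MIV against MII, where its change of -0.80 ± 0.09 (adjusted p = 6.80e-06) was short of 2-fold. Of its other probe sets 3 were called lower in MIV against MII, and on the highest-mean suffix-free one of them the changes were larger, -1.33 ± 0.16 against MII and -3.10 ± 0.16 against MIII, with a call of 1.77 for MIII over MII. THBS3, another thrombospondin, was the matricellular member lowest in MIII (69.1 ± 24.9, against 128 ± 28.6 in MII and 132 ± 26.9 in MIV, SD, n = 3), with no call in any comparison.

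**Figure D2:**
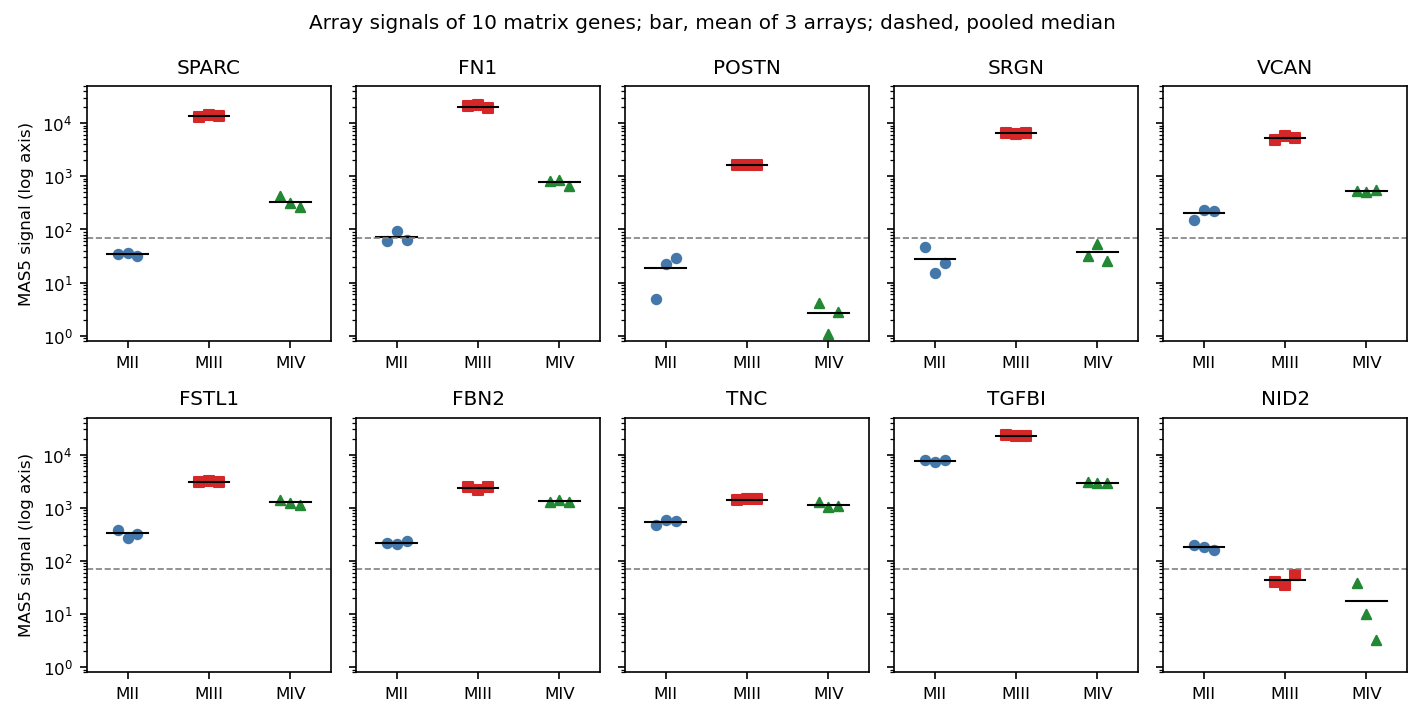
MAS5 signals of 10 members on a log axis, with 1 point per array, a bar at the mean of the 3 arrays of a line and the floor of 69.3 as a dashed line. POSTN and SRGN are high in MIII alone, SPARC, FN1, VCAN, FSTL1, FBN2 and TNC are higher in MIV than in MII, TGFBI is lowest in MIV, and NID2 is above the floor in MII alone.

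Fibronectin, FN1, which cells assemble into fibrils through integrins, was near the floor in MII and far above it in MIII. Of the 4 tested genes for fibronectin and basement membrane, 1 was called higher (all genes 6.17%) and 1 lower (all genes 5.55%) in MIII against MII. In MIV against MIII 2 were lower (all genes 7.79%), and in MIV against MII 1 was higher (all genes 2.96%) and 1 lower (all genes 5.18%). FN1 gave 59.4, 93.8 and 62.9 on the MII arrays, 20955, 21544 and 19064 on those of MIII and 827, 862 and 666 on those of MIV. The MIII arrays were above all others and those of MIV were above those of MII, with log2 changes of 7.85 ± 0.13 in MIII against MII, -4.68 ± 0.13 in MIV against MIII and 3.16 ± 0.13 for MIV over MII (limma adjusted p = 1.20e-14, 2.81e-12 and 3.00e-10). These values come from a probe set with the suffix _x_at, and 3 further bright FN1 probe sets gave changes of 3.02 to 3.65 in MIV against MII. Of its 3 dimmer probe sets, with means below the floor in MII and MIV, 1 failed the filter and the others gave 0.05 and 0.27 in MIV against MII.

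The basement membrane members took different directions. NID2, nidogen-2, which bridges laminin and collagen IV networks, gave 196, 185 and 162 on the MII arrays, 40.0, 35.1 and 54.6 on those of MIII and 39.3, 10.0 and 3.2 on those of MIV. Its MII arrays were above the floor and all others were below it, and it was called lower in MIII (-1.70 ± 0.37, limma adjusted p = 0.0016) and in MIV (-2.60 ± 0.37, adjusted p = 6.45e-05) than in MII. Below the floor its change in MIV against MIII was -0.90 ± 0.37 (adjusted p = 0.0548), which became a call without MIV replicate 1 (-1.31). HSPG2, perlecan, the heparan sulfate proteoglycan of basement membranes, gave 729, 513 and 508 on the MII arrays, 834, 937 and 922 on those of MIII and 287, 263 and 342 on those of MIV. It was called lower in MIV against MIII (-1.54 ± 0.14, limma adjusted p = 5.50e-07), and its change against MII of -0.92 ± 0.14 (adjusted p = 1.27e-04) passed 2-fold only without MII replicate 3 (-1.0) or MIV replicate 3 (-1.02). AGRN, agrin, another basement membrane proteoglycan, had overlapping arrays in all 3 lines (2399 ± 106, 2359 ± 139 and 2874 ± 368 in MII, MIII and MIV, SD, n = 3) and no call.

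All 3 tested interstitial proteoglycans were called higher in MIII than in MII (all genes 6.17%) and lower in MIV than in MIII (all genes 7.79%). DCN, decorin, a small leucine-rich proteoglycan that binds collagen fibrils, gave 79.0, 74.6 and 71.5 on the MII arrays, 2491, 2639 and 2404 on those of MIII and 79.7, 62.2 and 16.0 on those of MIV. MII and MIV overlapped near the floor (-0.53 ± 0.29, limma adjusted p = 0.162), and MIII differed from them by 4.76 ± 0.29 and -5.29 ± 0.29 as MIII against MII and MIV against MIII (adjusted p = 8.78e-09 and 2.70e-09). LUM, lumican, of the same family, gave 11.2, 1.4 and 1.6 on the MII arrays, 173, 221 and 198 on those of MIII and 16.1, 8.7 and 11.2 on those of MIV, a dim signal in MIII and below the floor elsewhere, with log2 changes of 3.25 ± 0.36 and -2.83 ± 0.36 (adjusted p = 4.93e-06 and 1.61e-05). A second LUM probe set failed the filter and showed no rise in MIII, with means below the floor (22.7, 15.1 and 19.5 in MII, MIII and MIV). LUM and DCN are neighbours with 0 protein-coding genes between them in the GRCh38.p14 annotation. Of the genes flanking them, KERA, keratocan of the same family, stayed between 0.6 and 14.8 on all arrays, and BTG1 was bright in all lines (8790 to 16129). BGN, biglycan, was not tested and had 61.2 ± 25.4 in MIII against 30.6 ± 9.7 in MII and 17.3 ± 22.2 in MIV. VCAN, versican, a large chondroitin sulfate proteoglycan that binds hyaluronan, gave 153, 233 and 226 on the MII arrays, 4832, 5666 and 5272 on those of MIII and 523, 510.0 and 564 on those of MIV. Its MIV signal was 10.1% of that of MIII and the lines did not overlap, with log2 changes of 4.59 ± 0.13, -3.26 ± 0.13 and 1.33 ± 0.13 for MIII over MII, MIV over MIII and MIV over MII (limma adjusted p = 2.90e-12, 9.50e-11 and 1.70e-06).

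The elastic fibre and microfibril genes did not move together. Of 6 tested, 3 were called higher (all genes 6.17%) and 1 lower (all genes 5.55%) in MIII against MII. In MIV against MIII 3 were lower (all genes 7.79%), and in MIV against MII 2 were higher (all genes 2.96%) and 2 lower (all genes 5.18%). FBN1, fibrillin-1, the main microfibril protein of adult tissue, gave 72.2, 61.7 and 70.2 on the MII arrays, 955, 964 and 905 on those of MIII and 42.4, 24.6 and 66.0 on those of MIV. It was high in MIII alone, with log2 changes of 3.48 ± 0.22 against MII and -3.99 ± 0.22 in MIV against MIII (limma adjusted p = 1.77e-08 and 3.81e-09), and MII and MIV overlapped. FBN2, the fibrillin of developing tissue, gave 215, 211 and 233 on the MII arrays, 2446, 2175 and 2453 on those of MIII and 1298, 1433 and 1285 on those of MIV. Unlike FBN1 it was well above the floor in MIV, where it held 56.8% of the MIII signal. Its log2 change was 2.51 ± 0.08 in MIV against MII (limma adjusted p = 3.12e-11) and -0.81 ± 0.08 in MIV against MIII, short of 2-fold (adjusted p = 1.83e-06). FBLN1, fibulin-1, which binds fibronectin and elastic fibres, gave 240.1, 139 and 182 on the MII arrays, 573, 547 and 566 on those of MIII and 586, 479 and 641 on those of MIV. MIII and MIV overlapped (0.01 ± 0.16, adjusted p = 0.978) and both were called above MII, by 1.53 ± 0.16 and 1.54 ± 0.16 (adjusted p = 3.31e-06 and 4.86e-06). Another FBLN1 probe set was lower in MIV than in MIII (-0.84 ± 0.15, adjusted p = 3.25e-04), short of 2-fold.

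EFEMP1 and MFAP5 took yet other courses. EFEMP1, fibulin-3, gave 6308, 6025 and 6371 on the MII arrays, 6825, 7552 and 6994 on those of MIII and 1652, 1553 and 1683 on those of MIV. MII and MIII were close, with a change of 0.19 ± 0.06, and MIV was called below both, by -1.92 ± 0.06 and -2.12 ± 0.06 (limma adjusted p = 8.43e-12 and 1.63e-12). MFAP5, a microfibril-associated glycoprotein, gave 164, 175 and 125 on the MII arrays, 46.1, 31.5 and 30.2 on those of MIII and 23.5, 71.9 and 47.2 on those of MIV. It was highest in MII and was called lower in MIII (-1.67 ± 0.32, adjusted p = 6.76e-04) and in MIV (-1.45 ± 0.32, adjusted p = 0.00242), a dim gene whose call in MIV was lost with a larger offset (-0.95). MFAP2, its relative, was called lower in MIV than in MIII (-1.48 ± 0.43, adjusted p = 0.0108) from signals of 81.8 ± 15.7 and 18.4 ± 10.9 (SD, n = 3) around and below the floor, and this call was lost with the larger offset (-0.79). Its change in MIII against MII was 0.73 ± 0.43 and became a call (1.16) without MII replicate 2.

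**Figure D3:**
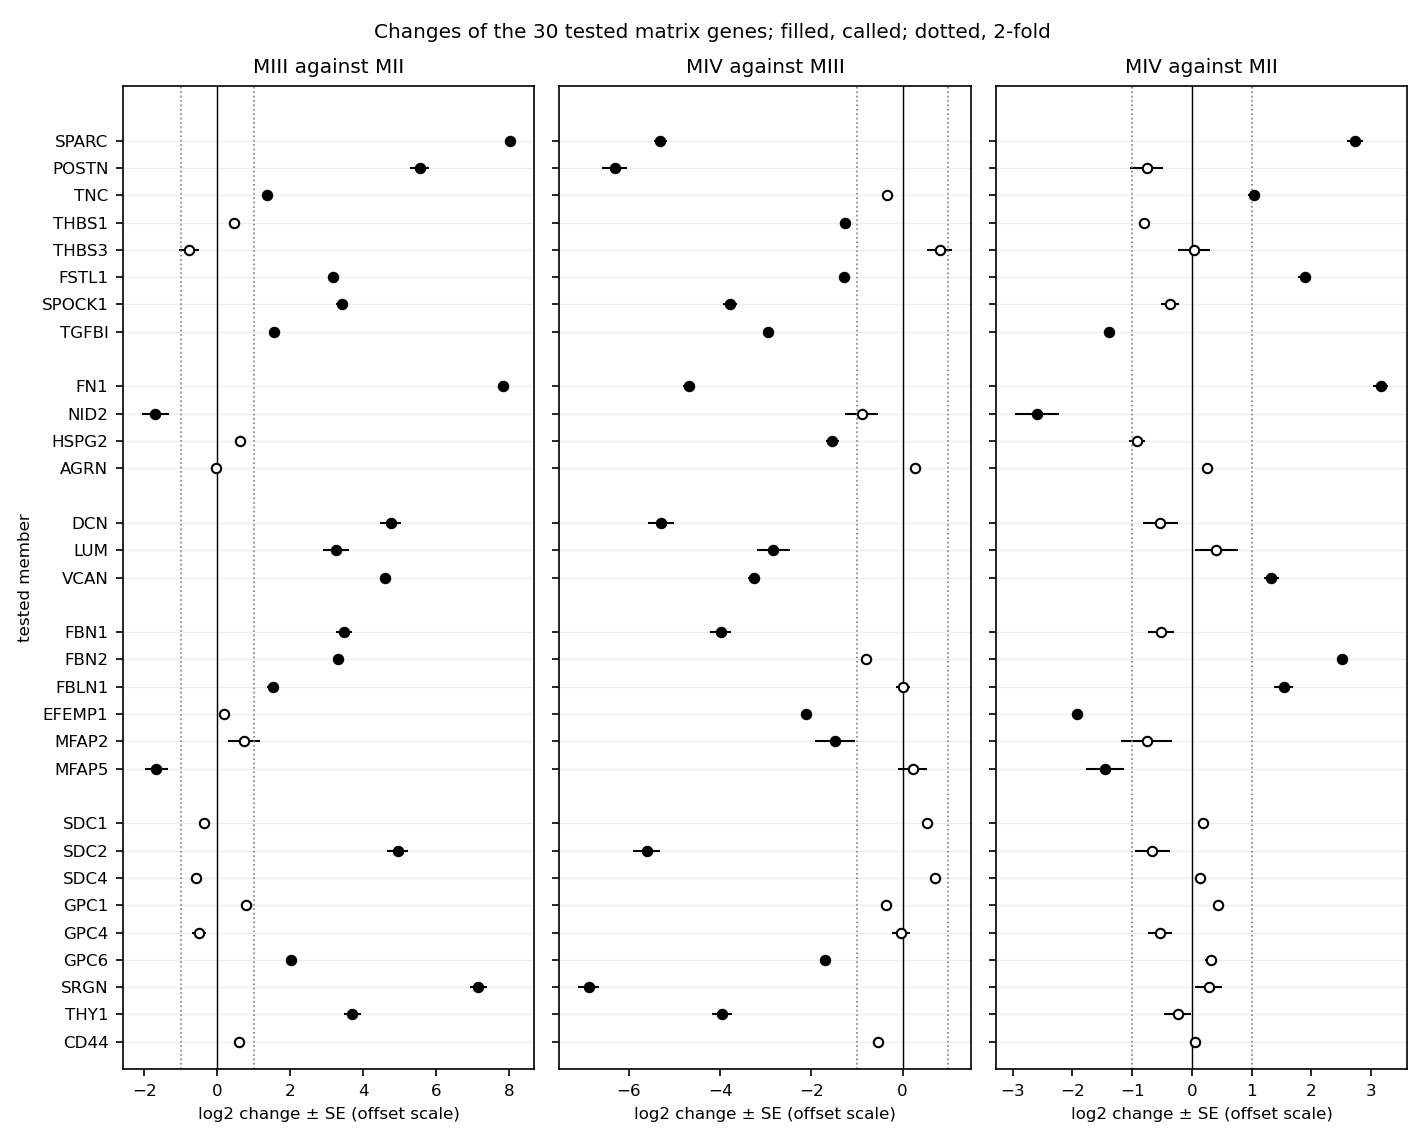
Log2 changes with SE from limma on the log2(signal + 18.3) scale for the 30 tested members in each comparison; filled points are called, and dotted lines mark 2-fold. In MIV against MIII the 18 filled points all lie left of 0, and in MIII against MII 17 of the 19 filled points lie right of 0, with NID2 and MFAP5 on the left.

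At the cell surface, genes of the same family differed in which line was highest. Of 9 tested surface and granule genes, 4 were called higher in MIII against MII (all genes 6.17%). The same 4 (SDC2, GPC6, SRGN and THY1) were called lower in MIV against MIII (all genes 7.79%). Syndecans are transmembrane heparan sulfate proteoglycans that act as co-receptors for growth factors and matrix. SDC2, the syndecan typical of mesenchymal cells, gave 7.9, 7.5 and 28.3 on the MII arrays, 962, 1031 and 890.5 on those of MIII and 1.6, 1.0 and 2.5 on those of MIV. It was detected above the floor in MIII alone, with log2 changes of 4.95 ± 0.29 and -5.61 ± 0.29 (limma adjusted p = 7.26e-09 and 1.79e-09). SDC1, the main epithelial syndecan, gave 8054, 8062 and 8383 on the MII arrays, 6601, 6477 and 5949.9 on those of MIII and 8773, 9459 and 9493 on those of MIV, with the lowest arrays in MIII and the highest in MIV. SDC4, found in focal adhesions, gave 7335, 6719 and 6941 on the MII arrays, 4378, 4950.2 and 4807 on those of MIII and 8224, 7256 and 7535 on those of MIV and was also lowest in MIII. Both were bright throughout and changed by less than 2-fold, with 0.54 ± 0.05 for SDC1 and 0.70 ± 0.06 for SDC4 in MIV against MIII (limma adjusted p = 1.07e-06 and 4.25e-07).

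Glypicans are heparan sulfate proteoglycans held by a lipid anchor. GPC6 was called higher in MIII than in MII (2.03 ± 0.10, limma adjusted p = 1.60e-09) and lower in MIV than in MIII (-1.71 ± 0.10, adjusted p = 9.02e-09), from signals of 343 ± 13.0, 1464 ± 202 and 433 ± 5.1 in MII, MIII and MIV (SD, n = 3). GPC1 had the same order of lines as TNC, with 1979 ± 98.5, 3452 ± 144 and 2673 ± 74.0, and no call. Its probe sets disagreed on MIV against MIII, with -0.37 ± 0.06 on the chosen one and 0.34 ± 0.10 on the other (adjusted p = 1.19e-04 and 0.00991), on which MIV was the highest line. GPC4 was dim and highest in MII (205 ± 16.5, against 142 ± 37.9 and 136 ± 24.8), also with no call, and its chromosomal neighbour GPC3 was below the floor on all arrays.

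SRGN and THY1 were high in MIII alone. SRGN, serglycin, a proteoglycan of secretory granules known best from blood cells, gave 46.8, 14.9 and 23.5 on the MII arrays, 6524, 6284 and 6443 on those of MIII and 32.2, 54.1 and 25.9 on those of MIV. It changed by -6.88 ± 0.23 in MIV against MIII and by 7.16 ± 0.23 in MIII against MII (limma adjusted p = 2.15e-11 and 1.44e-11), and MII and MIV overlapped below the floor. PTPRC, the leukocyte common antigen, was below the floor in MIII as well (28.3 ± 8.2, SD, n = 3), as was the endothelial cadherin CDH5 (6.0 ± 4.0). The monocyte marker CD14 was above the floor on all arrays, with 1489.6 ± 58.3 in MII and 594 ± 29.9 in MIII (-1.30 ± 0.10, limma adjusted p = 7.98e-08), and PECAM1 was 174 ± 48.0, 251 ± 33.1 and 306 ± 50.8 in the 3 lines. THY1, a lipid-anchored glycoprotein used as a fibroblast marker, gave 78.2, 64.5 and 39.8 on the MII arrays, 1026, 994 and 966 on those of MIII and 33.3, 55.8 and 54.8 on those of MIV, with log2 changes of 3.71 ± 0.22 and -3.95 ± 0.22 (limma adjusted p = 7.17e-09 and 3.38e-09). The surface and granule genes had 0 calls in either direction between MIV and MII (all genes 2.96% higher and 5.18% lower). There 3 were higher and 2 lower at an unadjusted limma p under 0.05.

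CD44, the hyaluronan receptor, whose transcript is spliced into many isoforms, was bright in all lines, and its probe sets differed in direction. On the brightest one CD44 gave 9882, 10719 and 10339 on the MII arrays, 15123, 15837 and 15767 on those of MIII and 10826, 10854 and 10338 on those of MIV, highest in MIII, with changes of 0.59 ± 0.05 in MIII against MII and -0.54 ± 0.05 in MIV against MIII (limma adjusted p = 1.14e-07 and 2.56e-07). Of the 11 CD44 probe sets of 13 that passed the filter, 5 were higher in MIV than in MIII at an adjusted p under 0.05, the brightest alone was lower, and 5 did not reach that p. The range was -0.54 to 0.83. In MIII against MII, 4 were higher and 4 lower at that p, between -0.55 and 0.71. Against MII, 8 of the 11 were higher in MIV at that p and 0 lower, between 0.05 and 0.65, with 11 of 11 above 0 and 0 called at 2-fold. Whether the probe sets read different isoforms was not tested.

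**Figure D4:**
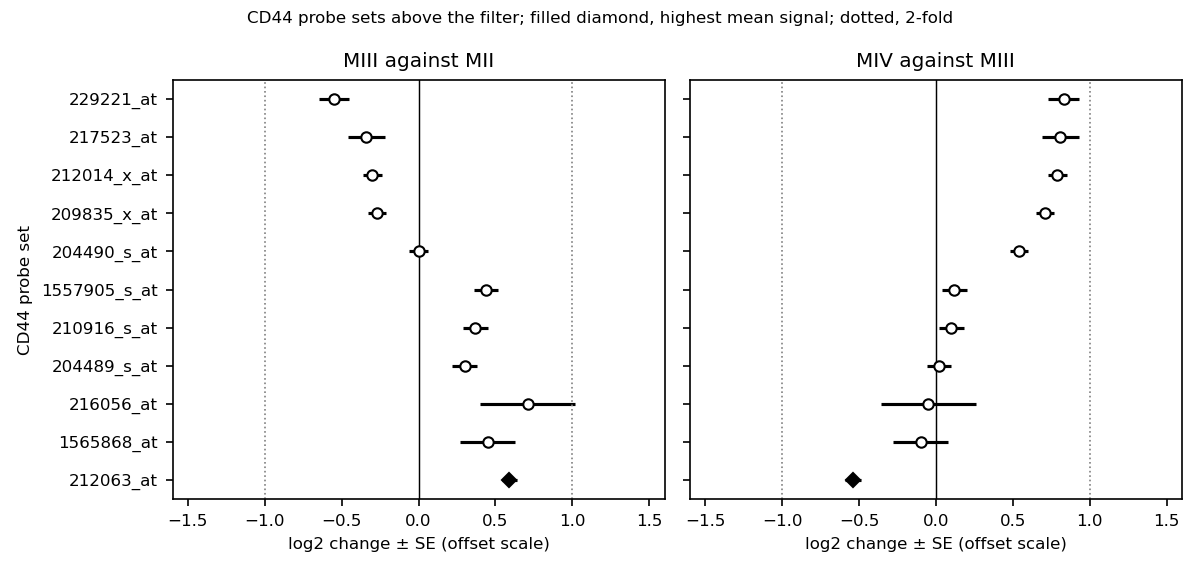
Log2 changes with SE (limma, all probe sets, offset scale) of the 11 CD44 probe sets above the filter, in MIII against MII and in MIV against MIII; the filled diamond is the probe set of highest mean signal. The values run from -0.55 to 0.71 in the first comparison and from -0.54 to 0.83 in the second, and none reaches the dotted 2-fold lines.

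The 40 members had 117 probe sets, of which 81 passed the filter, and 51 of these were not the one chosen for their gene. In MIV against MIII, 30 of the 51 were called in the direction of the chosen probe set, 0 in the opposite direction, and 1, of FSTL1, was not called although the chosen one was. In MIII against MII, 25 were called in the same direction and 0 in the opposite one, and dimmer probe sets of FBLN1, TNC and FSTL1 were not called. In MIV against MII, 12 were called in the same direction and 0 in the opposite one, and 5 probe sets of FN1, FBLN1, TNC and FSTL1 were not called. Averaging all probe sets of a gene ended the calls in MIV against MII of FBLN1 (0.94), FSTL1 (0.92) and TNC (0.54), and that of TNC in MIII against MII (0.64).

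Enzymes that build and sulfate the sugar chains of proteoglycans were in part higher in MIII than in the other lines. Of 42 tested genes of this list, 10 were called higher and 3 lower in MIII against MII, and 2 higher and 12 lower in MIV against MIII, with medians of 0.45 and -0.40. The shares called among all genes, given above, apply here too: 2 of 42 higher in MIV against MIII is close to the 4.95% of all genes, and 3 of 42 lower in MIII against MII is close to the 5.55%. Higher in MIII than in MII were the extracellular sulfatase SULF1 (4.10 ± 0.34), the chondroitin synthase CHSY3 (3.87 ± 0.33), the sulfate donor synthase PAPSS2 (2.72 ± 0.24) and the chondroitin sulfotransferase CHST11 (2.43 ± 0.24). The SULF1 signals were 10.1 ± 3.2, 476 ± 115 and 24.5 ± 16.1 in MII, MIII and MIV (SD, n = 3), below the floor in MII and MIV. SULF1 and HAS2 passed the filter through MIII arrays alone, and CHSY3 would not have passed without its MIII arrays. The calls of all these genes were favoured by that selection. In MIV against MIII the largest negative changes were those of HS3ST3A1 (-3.95 ± 0.14), DSEL (-3.74 ± 0.31), SULF1 (-3.58 ± 0.34) and CHST11 (-2.88 ± 0.24). HAS3, a hyaluronan synthase, gave signals of 719.5 ± 109.5, 282 ± 17.9 and 2777 ± 192 in MII, MIII and MIV (SD, n = 3) and log2 changes of -1.29 ± 0.11 in MIII against MII and 3.22 ± 0.11 in MIV against MIII (limma adjusted p = 2.35e-07 and 1.66e-11). HS3ST1, a heparan sulfotransferase, was called lower in MIII (-1.36 ± 0.16) and higher in MIV than in MIII (1.82 ± 0.16). In MIV against MII 3 of the 42 genes were called higher (all genes 2.96%), HAS3 (1.93 ± 0.11), CHSY3 (1.90 ± 0.33) and HS3ST2 (1.08 ± 0.26). There 4 were called lower (all genes 5.18%), among them DSEL (-2.95 ± 0.31) and HS3ST3A1 (-2.22 ± 0.14). HS3ST2 would not have passed the filter without its MIV arrays, which favoured its call.

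Genes that assemble and crosslink the matrix were mostly highest in MIII. Of 17 tested, 10 were called higher (all genes 6.17%) and 1 lower (all genes 5.55%) in MIII against MII (median 1.46). In MIV against MIII 1 was called higher (all genes 4.95%) and 8 lower (all genes 7.79%), with a median of -0.72. In each comparison the 1 call in the other direction is close to the share over all genes. Lysyl oxidase, LOX, which crosslinks collagen and elastin, rose from 352 ± 65.8 in MII to 3032 ± 149.9 in MIII and was 452 ± 46.4 in MIV (SD, n = 3), a change of 3.06 ± 0.12 and then -2.70 ± 0.12 in log2 (limma adjusted p = 1.16e-10 and 3.90e-10). LTBP1, which tethers latent TGF-beta to fibrillin and fibronectin, changed by 2.99 ± 0.08 and -3.24 ± 0.08. ITGA5, the alpha subunit of the main fibronectin receptor, was 682 ± 41.6, 2955 ± 108 and 1981 ± 93.2 in MII, MIII and MIV, and like FN1 was called higher in MIV than in MII (1.51 ± 0.07, adjusted p = 7.38e-10). LOXL4, of the lysyl oxidase family, was called lower in MIII against MII (-2.29 ± 0.28) and higher in MIV against MIII (2.39 ± 0.28). Between MIV and MII the calls were ITGA5 and LTBP2 (1.41 ± 0.08) higher (all genes 2.96%) and LTBP4 (-1.45 ± 0.30) lower (all genes 5.18%).

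**Figure D5:**
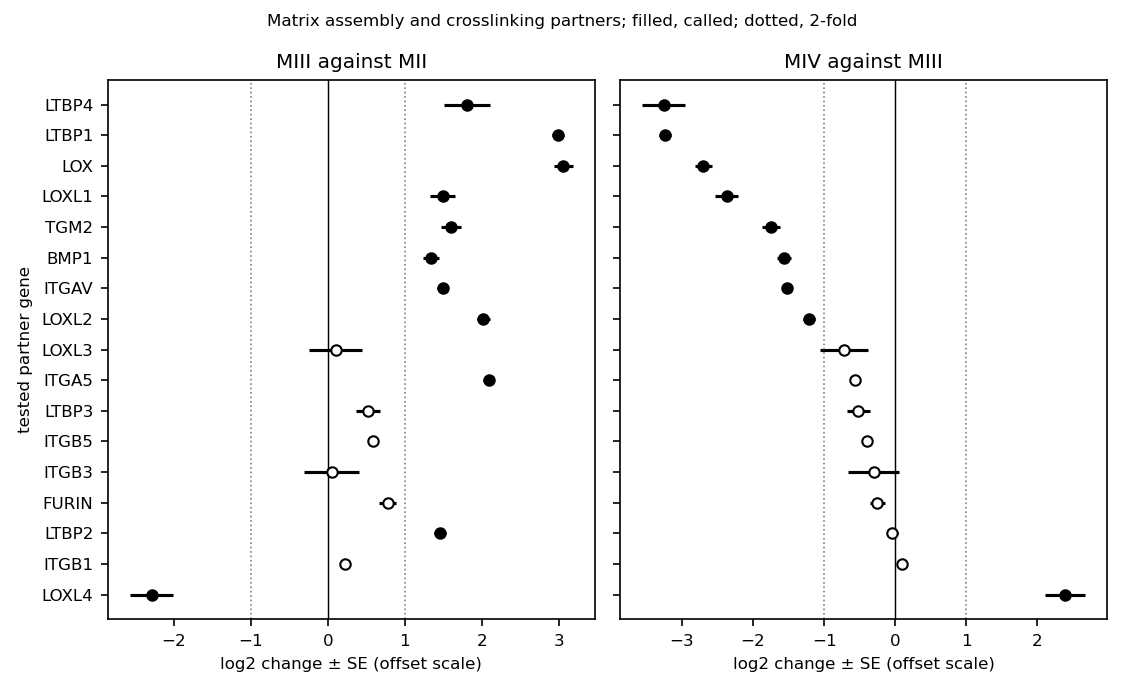
Log2 changes with SE (limma, offset scale) of the 17 tested matrix assembly and crosslinking partners, in MIII against MII and in MIV against MIII; filled points are called and dotted lines mark 2-fold. In the first comparison 10 filled points lie right of 0 and LOXL4 left of it, and in the second 8 lie left of 0 and LOXL4 right of it.

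Other matrix glycoproteins and proteoglycans outside the 40 numbered 50, of which 23 were tested. Of these, 5 were called higher (all genes 6.17%) and 0 lower (all genes 5.55%) in MIII against MII (0.19 median). In MIV against MIII 1 was called higher (all genes 4.95%) and 7 lower (all genes 7.79%), with a median of -0.59. The 1 of 23 called higher there is close to the share over all genes. EDIL3, an integrin ligand, changed by 3.69 ± 0.26 in MIII against MII and -4.08 ± 0.26 in MIV against MIII, and SPP1, osteopontin, by 3.13 ± 0.37 and -3.66 ± 0.37. The EDIL3 signals were 20.3 ± 3.5, 479 ± 55.6 and 11.0 ± 2.6 in MII, MIII and MIV (SD, n = 3), below the floor in MII and MIV. EDIL3, SVEP1 and HAPLN1 passed the filter through MIII arrays alone, and SPP1 would not have passed without its MIII arrays. The calls of all these genes were favoured by that selection. MGP, the matrix Gla protein that limits calcification, was 1962 ± 138, 7053 ± 73.7 and 3938 ± 44.5 in the 3 lines and was called, at the 2-fold minimum, higher in MIV than in MII (1.00 ± 0.06, limma adjusted p = 6.22e-09). SMOC1, a secreted calcium-binding protein of basement membranes, was the gene called higher in MIV against MIII (1.57 ± 0.11). SDC3, a further syndecan, was called lower in MIV than in both MIII (-3.14 ± 0.38) and MII (-2.17 ± 0.38), as was FSTL3 (-1.10 ± 0.07 and -1.23 ± 0.07).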

How the data were processed

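The deposited intensity values are MAS5 signals on a linear scale, 1 per probe set and array, per the submitters' processing notes, and every array had the same trimmed mean of 500.07. The software version, the scaling target and detection calls are not given in the sources used here. Of 54675 probe sets, 41091 were annotated to 1 gene. Per gene the probe set with the highest mean was kept, and genes with at least 3 of 9 arrays above the pooled median were tested as log2(signal + 18.3), the offset being the pooled 25th percentile. A group-means model with an intensity trend was fitted to all genes and all 9 arrays with limma 3.58.1 under R 4.3.3, using Benjamini-Hochberg adjustment across every tested gene; the fit was tested on simulated data. The members, lists, motifs and tests were chosen with earlier results of these data known. Named genes are all members and, of each other list, up to 4 called genes with the largest change per comparison, with the cell type markers and neighbouring genes that a sentence needed; HS3ST1, HS3ST2 and SMOC1 complete short counts and were named after their values were seen. The planned search of protein sequences was not run. Alternatives were other offsets, normalizations, filters, probe set rules, variance priors, a replicate block, the compared arrays alone and leaving out each array.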

Additional observations from a re-analysis of the deposited data

How the results depend on the processing

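The count of members called lower in MIV against MIII stayed between 12 and 20 under the 12 alternatives other than leaving out an array, against 18, and that of members called higher was 0 in each. In MIII against MII the members called higher numbered 14 to 17, against 17. Counts that moved by over 1.5 times were those of MIV against MII, with 2 in place of 4 called lower with the minimum raised to the 75th percentile of all values (24 members tested) and 4 in place of 7 called higher with the mean of all probe sets, and those called lower in MIII against MII, with 0 in place of 2 under the same filter and 1 on suffix-free probe sets (22 members tested). Stricter filters and the suffix-free rule test fewer members. The averages also hold dim probe sets that failed the filter, among them some of FSTL1, TNC and FBLN1, and their part in the lost calls was not tested. Leaving out each array in turn gave 18 to 19 lower and 0 to 0 higher in MIV against MIII, 4 to 5 lower and 6 to 7 higher in MIV against MII, and 2 to 2 lower and 17 to 18 higher in MIII against MII. With the replicate number as a block, 18 members were lower and 0 higher in MIV against MIII, 4 lower and 7 higher in MIV against MII, and 2 lower and 17 higher in MIII against MII, the same members as without it. Deviations of same-numbered arrays from their line means correlated between -0.04 and 0.04, so no shared effect of the replicate number was seen. Whether same-numbered arrays were handled together is not given in the labels. No called change of a member reversed its direction under any alternative run. On suffix-free probe sets FN1 lost its call in MIV against MII (0.27), as a dim probe set took its place. With an offset of 1, NID2 (-1.82, MIV against MIII), POSTN (-2.21) and SDC2 (-2.31, both MIV against MII) were called, all from signals below the floor. The dim signals and the 3 arrays per line limit the precision, with a median standard error of a log2 change of 0.11.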
